A study of Mus musculus with 8 samples.

Results

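The platelet-derived growth factor (PDGF) system was examined in mouse melanomas resistant to the withdrawal of their driving oncogene. It was taken as 6 genes: the receptors Pdgfra and Pdgfrb and the ligands Pdgfa, Pdgfb, Pdgfc and Pdgfd. All probes annotated to these genes were used, 7 of the 25697 probes on the array, with 2 probes for Pdgfb and 1 for each of the others. The 6 genes stand among 16593 with a named probe, and 5 of them were detected and entered the test of 10461 genes.

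Each of 8 melanomas was measured on 1 Illumina bead array. The 7 resistant tumours arose in FVB/n mice of the genotype DCT-TVA;Ink4a/Arf lox/lox, in which the Dct promoter directs the avian virus receptor TVA to melanocytes and the Ink4a/Arf tumour suppressor locus is floxed. Newborns received cells that produce virus carrying TRE-NRASQ61R-IRES-Cre and virus carrying Tet-off, so that Cre removed Ink4a/Arf in the same cells that expressed NRAS Q61R, an active form of a RAS GTPase. Doxycycline in the food then shut off NRAS Q61R and Cre once tumours had grown to 1000 mm3, and the 7 tumours are labelled resistant to that withdrawal. The 1 control melanoma kept NRAS Q61R on. Its description names an NRAS-IRES-Cre construct with no Tet-off element, so its virus may differ from that of the resistant tumours. The labels used here do not say how many mice the 7 tumours came from, so a p-value below covers the spread among these tumours only, which may be partly technical. Precision is limited by having 8 arrays.

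PDGFs are secreted dimers that bind receptor tyrosine kinases on the cell surface. The A and C chains act mainly through the alpha receptor, the D chain mainly through the beta receptor, and the B chain through both. An occupied receptor dimerises, phosphorylates itself and recruits adaptors that switch on RAS-MAPK, PI3K and phospholipase C signalling. In most tissues the alpha receptor marks fibroblasts and other mesenchymal progenitors, and the beta receptor marks pericytes and vascular smooth muscle, whose recruitment to vessels depends on endothelial PDGF-B. In melanoma both receptors are known from stromal cells, and receptor expression by the tumour cells themselves has been described. In whole-tumour RNA, fewer cells of a type and less RNA per cell cannot be told apart.

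The arrays detected between 11821 and 12851 probes at a detection p under 0.05, 12225 of them in the control. The melanocyte origin given by the labels had little support in the markers: of the 8 melanocyte markers with a probe, Mitf, Tyr, Tyrp1, Dct, Mlana and Pax3 were undetected on every array, control included, Pmel was detected on 2 arrays and Ednrb on all 8. Resistant tumour 6 stood apart from the other 6 for Pdgfra and several markers given below, so the Pdgfra results are given with and without it.

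Sequences before a transcription start of 3 members are shown because these genes differed between tumours in different ways: Pdgfra in a single tumour, Pdgfa and Pdgfc in others. Each is the 250 bases before a transcription start in the RefSeq promoter table of GRCm38.p6, printed 5′ to 3′ on the gene's strand. The windows are chr5:75152001-75152250 on the plus strand for Pdgfra, chr5:138994945-138995194 on the minus strand for Pdgfa and chr3:81036166-81036415 on the plus strand for Pdgfc. The Pdgfc window ends directly before the start of the gene record. The Pdgfra and Pdgfa windows lie inside the span of their gene records, before an internal start, and the table used does not say whether they are exonic or intronic. The table holds 2 windows for Pdgfa, of which the one with more GC boxes is printed. Capitals mark a GC box, GGGCGG, on either strand.
Pdgfra: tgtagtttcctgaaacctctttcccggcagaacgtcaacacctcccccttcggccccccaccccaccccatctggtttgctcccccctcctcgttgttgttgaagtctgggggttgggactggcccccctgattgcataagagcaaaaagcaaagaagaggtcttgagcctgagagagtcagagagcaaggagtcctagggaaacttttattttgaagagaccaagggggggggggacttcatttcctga
Pdgfa: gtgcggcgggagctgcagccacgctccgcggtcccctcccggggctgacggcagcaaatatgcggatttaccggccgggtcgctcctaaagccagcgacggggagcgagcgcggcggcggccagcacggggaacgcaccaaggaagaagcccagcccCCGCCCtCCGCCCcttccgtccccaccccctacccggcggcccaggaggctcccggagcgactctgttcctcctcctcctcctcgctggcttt
Pdgfc: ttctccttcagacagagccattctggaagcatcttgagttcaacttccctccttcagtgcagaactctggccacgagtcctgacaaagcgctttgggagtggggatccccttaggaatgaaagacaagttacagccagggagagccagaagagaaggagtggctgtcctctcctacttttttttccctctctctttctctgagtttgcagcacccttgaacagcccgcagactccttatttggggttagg
The printed Pdgfa window held 2 GC boxes, 93 and 86 bases before its start, and was 72.4% G and C, while the other Pdgfa window held 1 and was 66.4%. The Pdgfra and Pdgfc windows held 0, with 54.4% and 50.8% G and C. Of 32851 promoter windows of the same length, 32.7% held a GC box. An AP-1 site (TGANTCA, in 6.75% of windows) and an ETS site (CCGGAAG, in 6.91%), the binding motifs of transcription factors downstream of MAPK signalling, were searched on both strands and had no match in these 3 windows. A match or its absence describes the letters of the window only.

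No detected member of the PDGF system passed the test between the resistant tumours and the control. Of 5 members tested with limma, 0 were higher and 0 lower at an adjusted p under 0.05, against 0.00956% and 0.210% of all genes tested, and 0 had an unadjusted p under 0.05. With 1 control the test recovered 6.87% of simulated 2-fold changes, so a change of that size could have been missed. All 5 averages lay below the control, although that of Pdgfc changed sign with the processing. The median difference was -0.47 on the log2 scale against -0.02 for all genes. That median is the Pdgfra value, which was -0.09 without tumour 6, so it does not describe the 5 members as a set. The resistant tumours also differed among themselves: Pdgfrb and Pdgfc spread more widely than most genes whichever tumour was left out, and Pdgfra did so only with tumour 6 included. In the sentences that follow, intensity is the deposited linear value, and log2 values are background-corrected and quantile normalised.

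**Figure D1:**
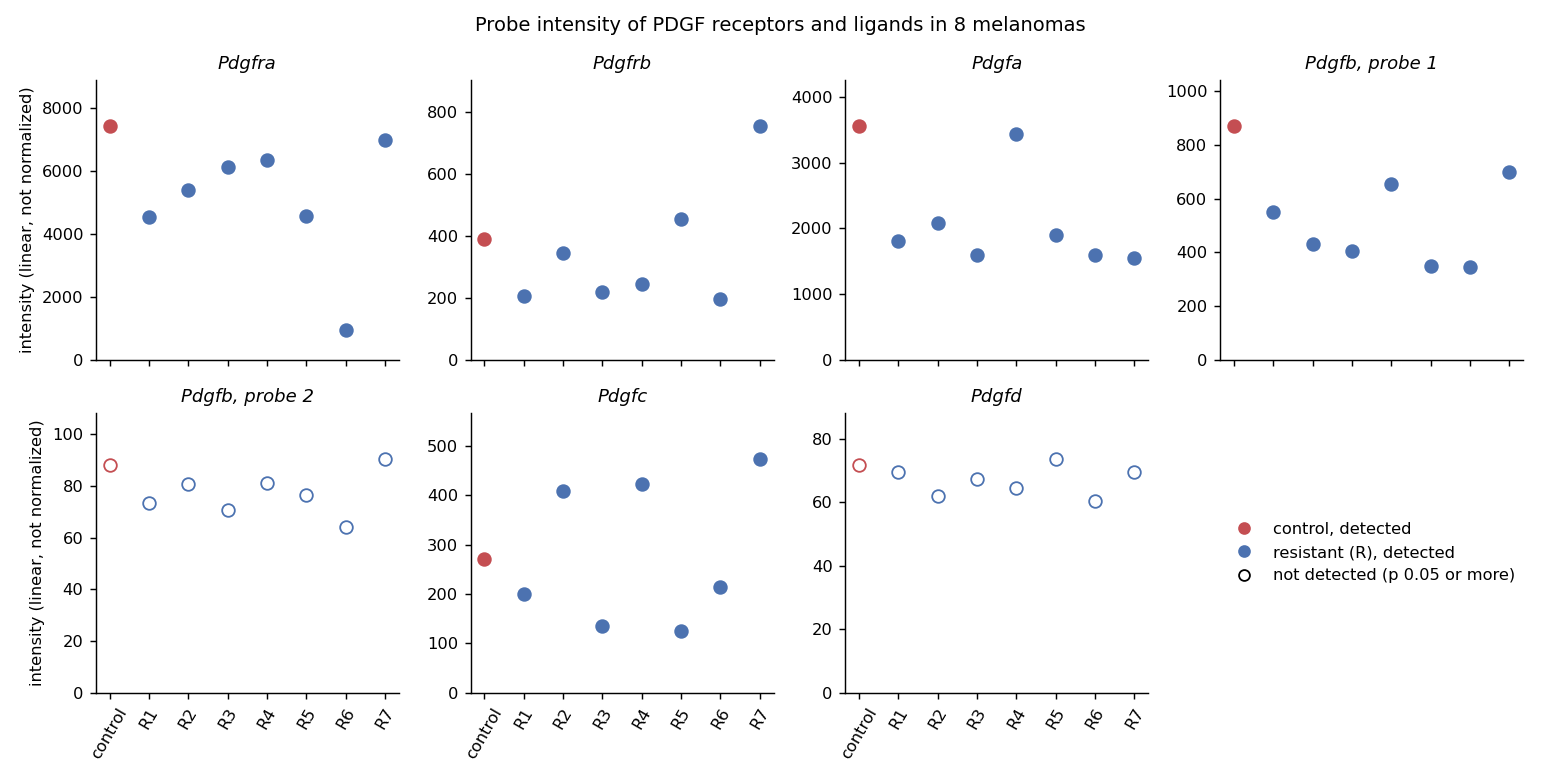
Deposited linear intensity of the 7 probes of the 6 genes (each vertical axis starts at 0) in the control (red) and resistant tumours R1 to R7 (blue). Filled circles were detected and open circles were not, and Pdgfra in R6 lies at 955.7 where the other 7 tumours lie between 4530.6 and 7413.3.

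Pdgfra, the alpha receptor on chromosome 5, was bright in 7 of 8 tumours. Its intensity was 7413.3 in the control and 4530.6, 5405.9, 6109.5, 6332.8, 4563.0, 955.7 and 6965.4 in resistant tumours 1 to 7. Tumour 6 alone was low, and the other 6 resistant tumours lay close around the control once normalised. The log2 difference of tumour 6 from the control was -2.78, which is 6.86-fold lower as 1 array against 1 array with no replicate check. The other 6 ranged from -0.28 to 0.19 relative to the control. The 7 resistant tumours averaged 12.09 ± 1.03 (SD, n = 7) against 12.57 in the control, a difference of -0.47 (SE 0.95, 95% interval -2.65 to 1.71, limma adjusted p = 0.932). Without tumour 6 the difference was -0.09 (SE 0.25, adjusted p = 0.930). With all 7 resistant tumours 8.47% of the genes tested had a larger SD than Pdgfra. Without tumour 6 its SD was 0.20, and 76.8% of genes had a larger one.

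Pdgfrb, the beta receptor on chromosome 18, varied more evenly. Its intensity was 390.9 in the control and 204.9, 345.7, 219.4, 245.7, 453.8, 195.7 and 754.9 in resistant tumours 1 to 7. Tumours 7 and 5 were the highest, tumour 2 was near the control, and tumours 1, 3, 4 and 6 lay below it. Relative to the control, tumour 7 was 2.34-fold and tumour 5 was 1.64-fold higher, and tumour 6 was 2.26-fold lower. The mean difference was -0.21 (SE 0.84, 95% interval -2.12 to 1.71, adjusted p = 0.968), with 3 tumours above the control and 4 below. It was -0.05 without tumour 6 and -0.45 without tumour 7. The resistant tumours spanned a 5.29-fold range, and 10.7% of genes had a larger SD. The tumour with the least Pdgfrb was also the one with the least Pdgfra, but tumours 1, 3 and 4 combined a low Pdgfrb with a Pdgfra near the control.

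Pdgfa encodes the A chain, a ligand of the alpha receptor secreted by many epithelia and tumour cells. Its intensity was 3551.7 in the control and 1812.6, 2074.9, 1591.7, 3432.8, 1890.5, 1596.1 and 1549.8 in resistant tumours 1 to 7. Tumour 4 matched the control, and the remaining 6 were lower than it. The difference was -0.55 (SE 0.38, 95% interval -1.42 to 0.32, adjusted p = 0.765), with the resistant tumours at 10.91 ± 0.37 (SD, n = 7) against 11.46 in the control on the log2 scale. Of the genes tested, 46.7% had a larger SD, and 78.8% did with tumour 4 left out.

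Pdgfb encodes the B chain, which endothelial cells, platelets and macrophages release and which binds both receptors. On its detected probe the intensity was 869.5 in the control and 550.4, 429.4, 406.1, 653.8, 349.5, 344.2 and 700.9 in resistant tumours 1 to 7. The control was the highest of the 8 tumours, so the groups did not overlap, and tumours 7 and 4 came closest to it. The difference was -0.63 (SE 0.43, 95% interval -1.61 to 0.35, adjusted p = 0.755), an average 1.55-fold lower. Pdgfb was the 1 member of 5 that lay below the control in all 7 resistant tumours, where 17.0% of all genes did so, and 0 members lay above it in all 7, against 13.3% of all genes. The other Pdgfb probe was undetected on all 8 arrays, with intensities of 64.0 to 90.3, so it gives no second reading of the gene.

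Pdgfc encodes the C chain, a latent ligand of the alpha receptor that proteases must activate. Its intensity was 271.8 in the control and 199.1, 408.9, 134.6, 422.7, 124.6, 214.4 and 473.0 in resistant tumours 1 to 7. Tumours 2, 4 and 7 were above the control and the other 4 below it. Relative to the control these 3 were 1.98-fold, 1.86-fold and 2.18-fold higher, while tumours 3 and 5 were 2.28-fold and 2.36-fold lower and tumours 1 and 6 were 1.26-fold and 1.29-fold lower. These opposite differences left a mean difference of -0.02 (SE 0.94, 95% interval -2.17 to 2.13, adjusted p = 0.998). Its sign turned without background correction (0.041), so no direction is given for it. The range over the resistant tumours was 5.16-fold, and 8.68% of genes had a larger SD.

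Pdgfd, the D chain and the other latent ligand, was not detected in any of the 8 tumours. Its single probe had an intensity of 71.8 in the control, and the resistant tumours ran from 60.5 to 73.5, with detection p-values of 0.313 to 0.902. No level or difference is given, and a probe at background does not show that the transcript is absent.

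**Figure D2:**
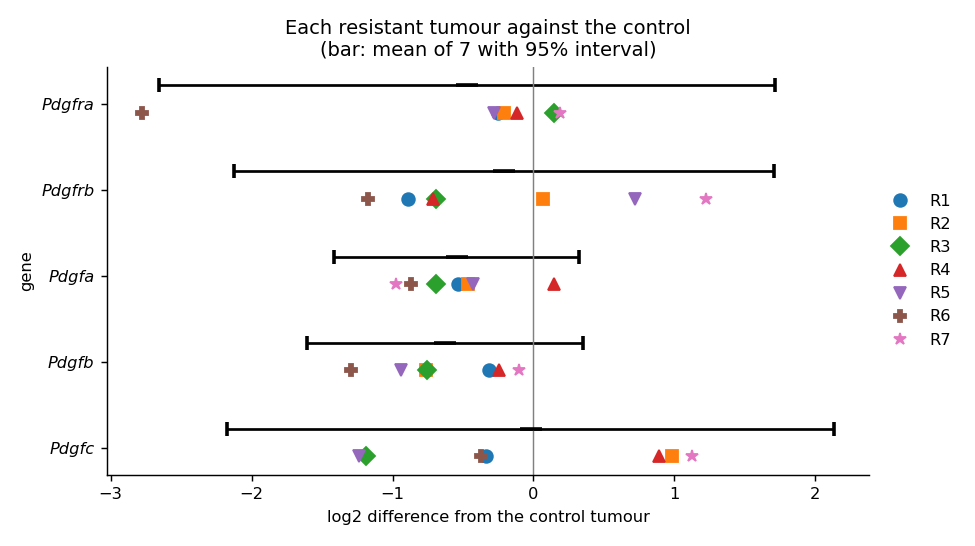
Log2 difference of each resistant tumour (R1 to R7, symbols) from the control for the 5 detected members, with the mean of the 7 and its 95% interval as a black bar. All 5 intervals include 0, R6 lies far left for Pdgfra, and R2, R4 and R7 lie right of 0 for Pdgfc.

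Whether receptors and ligands varied together was asked over the 7 resistant tumours, in 10 pairs of the 5 detected members. No pair passed after Benjamini-Hochberg adjustment of exact two-sided permutation p-values. The lowest p belonged to Pdgfra and Pdgfb, with Pearson r = 0.72 (exact permutation p = 0.0296, adjusted 0.296) and Spearman rho = 0.82 (exact permutation p = 0.0341, adjusted 0.341). Without tumours 6 and 7, the farthest from the Pdgfra median, r was -0.04, so that relation rested on those tumours. Pdgfb and Pdgfc had r = 0.56 and rho = 0.64 (exact permutation p = 0.185 and 0.139, adjusted 0.759 and 0.589), and r = 0.50 without tumours 7 and 6. The beta receptor and its ligand Pdgfb had r = 0.31 and rho = 0.32 (exact permutation p = 0.485 and 0.498, adjusted 0.792 and 0.827), and r = 0.19 without tumours 7 and 5.

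Of the neighbours of Pdgfra on chromosome 5, Chic2 and Srd5a3 were detected on all 8 arrays and stayed close to the control in tumour 6. Chic2, on one side, had a log2 difference from the control of -0.11 there, its lowest, and of 0.50 to 1.15 in the other 6 resistant tumours. Srd5a3, on the other side and an enzyme of dolichol synthesis, had a difference of 0.16 in tumour 6. Neither passed limma's test between the groups (0.61, SE 0.40, adjusted p = 0.740 for Chic2 and 0.33, SE 0.32, adjusted p = 0.837 for Srd5a3). Kdr, the VEGF receptor gene of the same cluster, lies between Pdgfra and Srd5a3 and was undetected in the control. It read 4.87 in the control and 5.36 in tumour 6, near the detection limit. Its mean difference was 0.49 (SE 0.20, limma adjusted p = 0.582). Gsx2 had no detected probe and Kit was not analysed here.

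**Figure D3:**
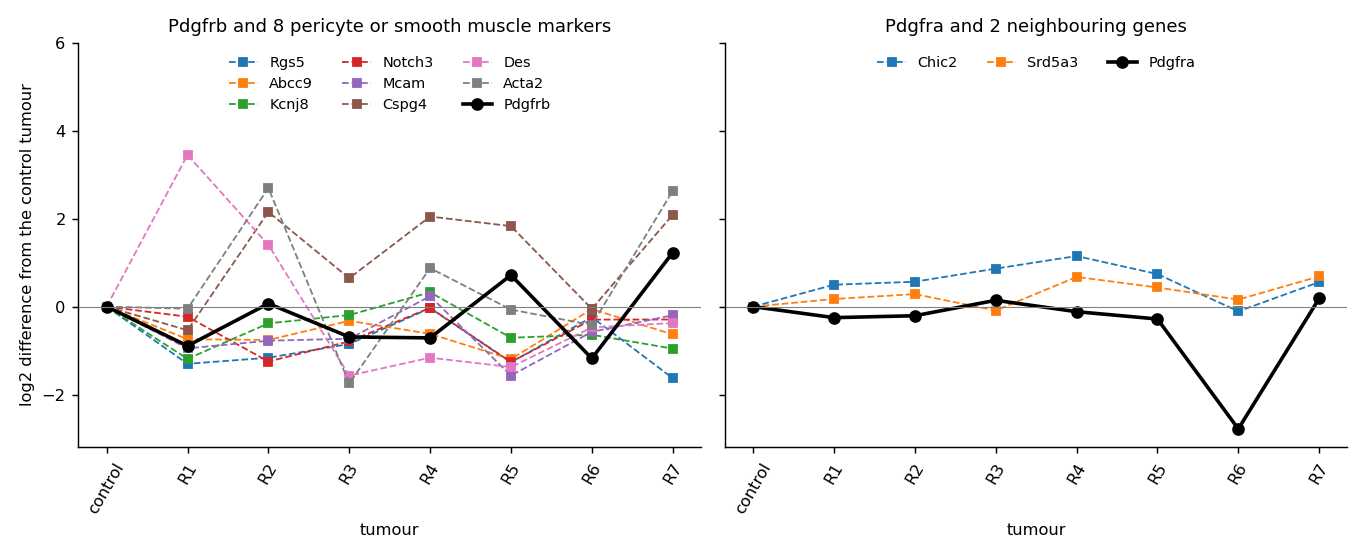
Log2 difference of each tumour from the control, for Pdgfrb (black) with the 8 pericyte or smooth muscle markers detected on all arrays (left) and for Pdgfra (black) with its neighbours Chic2 and Srd5a3 (right). Pdgfrb is highest in R7, where Rgs5 is lowest and Acta2 and Cspg4 are high. Pdgfra drops in R6, where the 2 neighbours lie at -0.11 and 0.16. Chic2 is also lowest in R6, at -0.11 against 0.50 to 1.15 in the other 6 resistant tumours.

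Pericyte and smooth muscle markers differed from each other in how they stood beside Pdgfrb. Rgs5, a regulator of G-protein signalling that marks pericytes, was below the control in all 7 resistant tumours (-0.93, SE 0.56, adjusted p = 0.720). It read 7.19 in tumour 7 and 7.55 in tumour 5, the tumours with the most Pdgfrb, and 8.58 in tumour 6, which had the least. It also read 7.51 in tumour 1 and 7.65 in tumour 2, where Pdgfrb read 7.26 and 8.22. Abcc9 and Notch3 were also below the control in all 7, and Kcnj8 in 6 of 7, and none of these passed. Cspg4, the NG2 proteoglycan of pericytes and of some melanoma cells, had log2 differences from the control of 1.83 to 2.15 in tumours 2, 4, 5 and 7 and of -0.54 to 0.65 in the others. Acta2, the smooth muscle actin gene, differed from the control by 2.63 in tumour 7, -0.07 in tumour 5 and -0.42 in tumour 6, and by 2.70 in tumour 2. In tumours 7, 5 and 6, Mcam differed from the control by -0.20, -1.57 and -0.57, and Des by -0.37, -1.37 and -0.47. Cspg4 was thus high and Rgs5 low in both tumours with the most Pdgfrb, but Cspg4 was also high in tumours 2 and 4. Rgs5 was as low in tumour 1 as in tumour 5, and Acta2 was high in tumour 7 but not in tumour 5. Of 10 pericyte and smooth muscle markers tested, 0 passed and 3 were below the control in all 7, beside 17.0% of all genes. Their summed level was 4773.6 in the control, where Acta2 (11.51) was the brightest of them, and 2089 to 20673 in the resistant tumours. Their part in the Pdgfrb values was not tested.

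Fibroblast markers did not differ in one direction. Of 11 tested, 0 passed and 3 lay below the control in all 7, beside 17.0% of all genes. The 3 were Thy1 (-3.10, SE 0.77, limma adjusted p = 0.289), Fbln2 and Col3a1, although the other Col3a1 probe gave 0.93. Fap (1.17) and Dpt (1.49) lay above the control in 6 of 7 and Pdpn (0.42) in 5 of 7. Their mean log2 difference from the control was -1.76 in tumour 6, -1.51 in tumour 1 and -1.26 in tumour 3, and from -0.45 to 0.16 in the remaining 4. The Pdgfra difference was -0.25 in tumour 1 and 0.14 in tumour 3. In tumour 3 the low mean included -5.16 for Fbln2, -4.10 for Thy1, -2.08 for Lum, -1.86 for Col3a1 and -1.75 for Col1a1. Pdpn was at 0.90 and Dpt at 0.28 there. In tumour 6 Pdpn was at -2.73 and Dpt at -0.86. Lum, Col3a1 and Col1a1 were at -2.41, -3.01 and -1.12 in tumour 6, and at -3.33, -2.12 and -2.60 in tumour 1. The summed fibroblast level was 54020 in the control and 12846 to 63980 in the resistant tumours. The collagen-binding proteoglycan gene Dcn read 11.11 in tumour 6 and 12.30 to 14.64 in the other resistant tumours. The simple keratin gene Krt8 read 5.18 in tumour 6, 10.33 in the control and 11.45 to 14.14 in the others, and Krt18 was undetected there. The part of these cell types in the Pdgfra value was not tested.

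Markers of cells that release PDGF-B differed from the control in both directions. Endothelial markers had 2 of 9 below and 1 above the control in all 7, against 17.0% and 13.3% of all genes. The 1 above was Kdr, near the detection limit. The summed endothelial level was 7436.1 in the control and 3065.2 to 6401.3 in the resistant tumours. Esam and Vwf were the 2 that were lower throughout (-1.45, SE 0.54 and -1.06, SE 0.70, adjusted p = 0.544 and 0.740). Of 8 macrophage markers, 5 were above the control in all 7 and 0 below it in all 7, beside 13.3% and 17.0% of all genes. Cx3cr1 differed most (3.96, SE 0.69, limma adjusted p = 0.0877). Mrc1 (-0.53) lay below the control in 5 of 7 and Aif1 (0.08) in 4 of 7. The summed macrophage level was 10248 in the control and 12679 to 23891 in the resistant tumours. Among 6 platelet markers tested, Pf4, which platelets store with PDGF, had log2 differences from the control of -2.87 to -1.02 in the resistant tumours (mean -1.89, SE 0.66, adjusted p = 0.510). Ppbp was detected in 3 of 8 tumours (-2.17, SE 0.37, limma adjusted p = 0.0807), and its other probe, detected on 2 of 8 arrays, gave -0.80. Itga2b was above the control in all 7 (0.67), Gp1bb (0.23) and Treml1 (0.29) were above it in 6 of 7, and the median of the list was -0.06. The summed platelet level was 2329.9 in the control and 498.64 to 1207.3 in the others. Both sums lay below the control in all 7 tumours, but the mean log2 difference of the endothelial list ran from -0.44 to 0.39, with a list median of 0.13. The part of these cells in the Pdgfb values was not tested. Skeletal muscle markers, at a summed level of 408.05 in the control, reached 39407 in tumour 1.

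Genes that process or activate PDGF ligands included the largest difference of the pathway. Plau, the urokinase that can release active PDGF-D, read 13.12 in the control and 12.88, 9.05, 8.57, 9.51, 9.49, 8.86 and 8.51 in resistant tumours 1 to 7. Tumour 1 matched the control and the other 6 formed a low group (-3.57, SE 1.39, adjusted p = 0.562). Furin, the convertase that cuts the A and B chain precursors, was below the control in all 7 (-0.67, SE 0.29, adjusted p = 0.604) and its other detected probe gave -0.60. Plat, the tissue activator that releases PDGF-C, was detected in 2 of 8 tumours. St14 and Plg had no detected probe. Of 3 genes of this list tested, 0 passed and 2 lay below the control in all 7, where 17.0% of all genes did so.

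Coreceptors and negative regulators lay mostly below the control, and 0 passed. Of 10 tested, 3 lay below the control in all 7 and 0 above, against 17.0% and 13.3% of all genes. Rasa1, the RAS inactivator that docks on the beta receptor, differed by -1.14 (SE 0.46, adjusted p = 0.582), and Socs3, a feedback inhibitor of cytokine receptor signalling, by -1.16 (SE 0.49, adjusted p = 0.603). Slc9a3r1, the NHERF1 scaffold that binds the receptor tail, differed by -1.01 (SE 0.59, adjusted p = 0.702). Nrp1, a coreceptor for several growth factors, differed by -0.31 (SE 0.50, adjusted p = 0.916). The median of the list was -0.58, against -0.02 for all genes. Cbl, Ptpn2 and Ptprj had no detected probe.

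The signal adaptors and effectors of the receptors differed in both directions. Their median difference was 0.01, while the difference of their mean from the control was -0.27 to -0.03 over the 7 tumours. Of 18 tested, 3 lay below the control in all 7 and 2 above it, against 17.0% and 13.3% of all genes, and 0 passed. Stat3 differed by -1.10 (SE 0.46, adjusted p = 0.598), while its remaining probes gave -1.34 and 1.04, so the gene has no settled direction. Nck2, an adaptor to the actin cytoskeleton, differed by -0.81 (SE 0.36, adjusted p = 0.619) and Shc1, an adaptor to RAS, by -0.38 (SE 0.19, adjusted p = 0.655), with 0.00 on another Shc1 probe. Ptpn11, the SHP2 phosphatase, differed by 0.03 (SE 0.24) and Pik3r1, the p85 subunit of PI3K, by -0.46 (SE 0.51). Jak2 and Crk were the 2 above the control in all 7. Ptpn11, Pik3r1, Jak2, Crk and, among the coreceptors, Nrp1 were named after their values were seen. Plcg1, Yes1, Grb7, Sos1 and Stat5b had no detected probe.

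**Figure D4:**
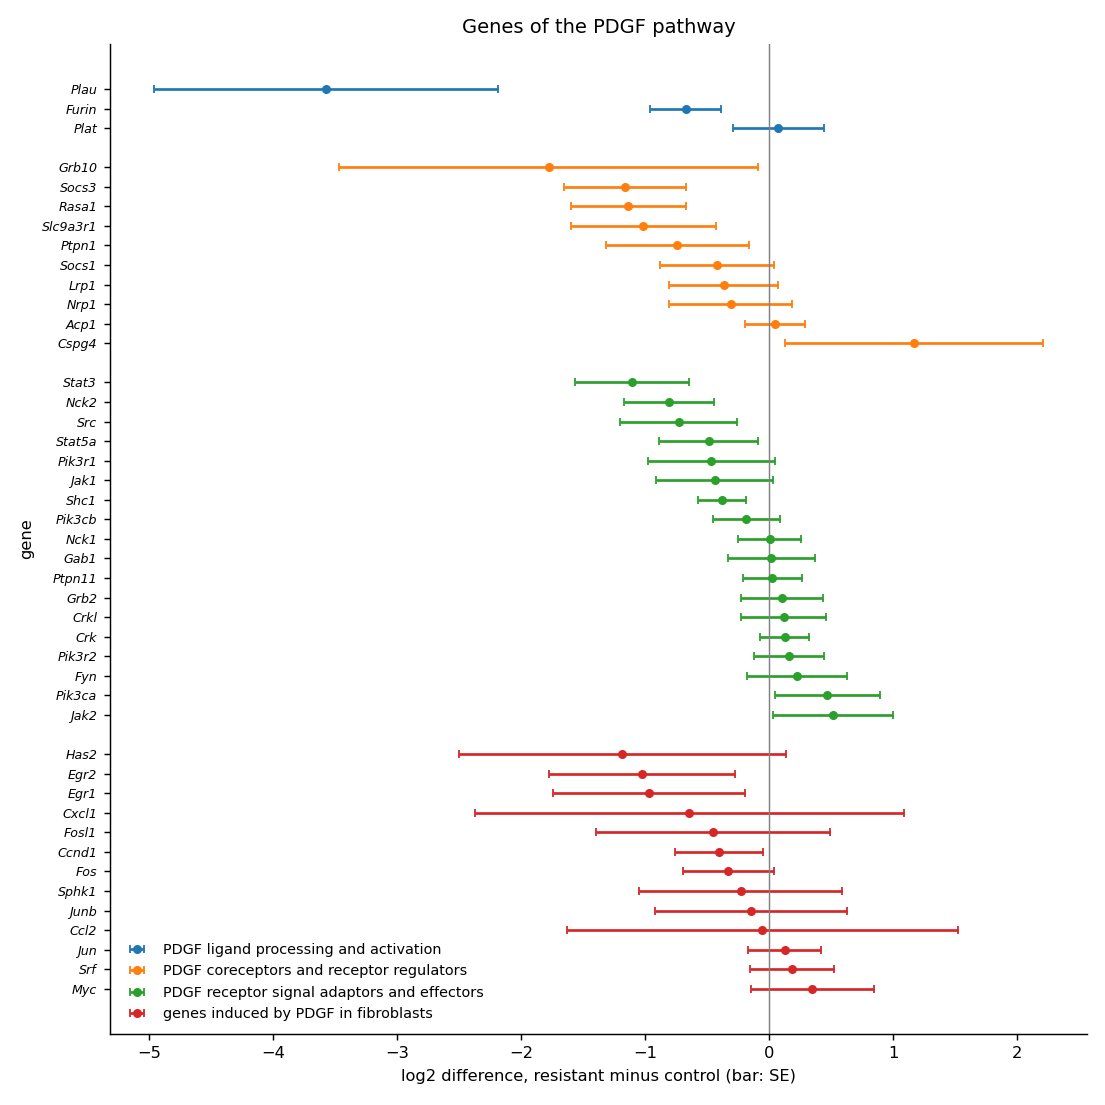
Log2 difference, resistant minus control, with its SE for the 44 tested genes of 4 PDGF pathway lists. Most points lie left of 0 with Plau farthest at -3.57, and no gene passed limma's test.

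Genes that PDGF induces in cultured fibroblasts differed in both directions. Of 13 tested, 0 passed, 2 lay below the control in all 7 and 0 above, beside 17.0% and 13.3% of all genes. The median difference was -0.33. The mean of the list ran from -1.33 in tumour 6 to 0.06 in tumour 7. Egr1, an immediate early transcription factor, differed by -0.97 (SE 0.77, adjusted p = 0.796) and Egr2 by -1.02 (SE 0.75, adjusted p = 0.781). The cyclin gene Ccnd1 differed by -0.40 (SE 0.35, adjusted p = 0.820), with its other probes at -0.34 and -0.74. In tumour 6, the chemokine gene Ccl2 read 5.76 against 8.92 to 10.62 in the other resistant tumours and 9.50 in the control, and the AP-1 gene Fosl1 read 6.00 against 7.51 to 8.81 and 8.53. The hyaluronan synthase gene Has2 read 5.22 in tumour 6, the lowest of the 8. These 3 genes were chosen after their values were seen. Not all of the list was as low there. In tumour 6, Ccnd1 differed from the control by -0.02, Egr1 by -0.40 and Egr2 by -1.18. Over the 4 pathway lists together, 10 of 44 genes tested lay below the control in all 7 and 2 above, beside 17.0% and 13.3% of all genes. At an unadjusted limma p under 0.05, 5 of the 44 were lower and 0 higher. Of all 10461 genes tested, 560 were lower and 299 higher at that p.

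Relatives of the PDGF receptors and ligands gave no call either. Csf1, the ligand of the class III receptor kinase of macrophages, was above the control in all 7 (0.74, SE 0.33, adjusted p = 0.610). Pdgfrl, a receptor-like gene without a kinase, read 6.73 in the control and ranged from 6.05 in tumour 5 to 11.08 in tumour 6, the tumour with the least Pdgfra (1.52, SE 1.60, adjusted p = 0.864). The Kit ligand gene Kitl differed by 0.71 (SE 0.93). Among VEGF genes, structural kin of the PDGFs, Flt1 was below the control in all 7 (-0.87, SE 0.37, adjusted p = 0.603) and Vegfb above it (0.66, SE 0.33, adjusted p = 0.634). Of 8 VEGF genes tested, 1 lay below the control in all 7 and 3 above it. Those 3 included Kdr and Flt4, detected on 5 and 1 of 8 arrays. Of 4 class III receptor kin and ligands tested, 0 lay below and 1 above. The shares over all genes were 17.0% below and 13.3% above. Flt3 and Flt3l had no detected probe.

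Among 7204 other genes detected on all 8 arrays, those most like each member across the 8 tumours were ranked by Pearson correlation, as a description chosen from many. Lpar1, a lysophosphatidic acid receptor gene, was closest to Pdgfra (r = 0.98). It read 5.60 in tumour 6 and 8.92 to 9.61 in the resistant others. The next were Prc1, Tgfbi, Lxn and Rbms1. Without tumours 6 and 7, the lowest and highest of the 8 in Pdgfra, the coefficient for Lpar1 was 0.31. Those of the other 4 were 0.13 to 0.74, the highest being that of Prc1. The 2 tumours were left out together, so the part of tumour 6 alone was not tested. Closest to Pdgfrb were Nsun4 (r = 0.95), Zfp628, Lgals9, Smad1 and Klhl34, and to Pdgfa they were Uros (r = 0.94), Sbds, Nme1, Pxdn and Sys1. Closest to Pdgfb were Snapc1 (r = 0.96), Adcy4, Tbcb, Bbx and Vps50. Closest to Pdgfc were Tnfrsf11b (r = 0.96), which encodes the decoy receptor osteoprotegerin, Cdc42ep5, Pgap3, Pard6a and Gask1b. Tnfrsf11b read 9.79, 8.89 and 10.09 in tumours 2, 4 and 7 and 5.50 to 7.01 in the other 5 tumours, and r was 0.96 without tumours 7 and 2.

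The 3 tumours with the most Pdgfc were also those with the most Met, the hepatocyte growth factor receptor, and Hgf, both named after their values were seen. Met read 10.32, 9.51 and 9.83 in tumours 2, 4 and 7 and was 5.92 in tumour 5 and undetected in the remaining 4 tumours. Hgf read 8.21, 7.53 and 8.36 in the same 3 tumours.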

How the data were processed

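Per the labels' protocols, total RNA of 8 tumours was made into biotinylated cRNA and hybridised to Illumina bead arrays, and GenomeStudio is named in the submitters' processing notes. The authors deposited linear probe intensity with a detection p-value for every probe and array, non-normalized per the file headers, and an intensity table they had normalized by an unstated step. Symbols came from the platform annotation, updated by gene ID through RefSeq GRCm38.p6 (23962 of 23978 named probes), and promoters from RefSeq.

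Intensities were processed with limma's neqc, which corrects background from the detection p-values (offset 16), quantile normalizes and takes log2. Probes detected (p under 0.05) on at least 1 array were kept, with the probe of highest mean standing for a gene. Groups came from the titles. The test between groups was limma's lmFit and eBayes, two-sided, with Benjamini-Hochberg adjustment over all 10461 genes. Since there is 1 control, its own spread is unknown and the resistant tumours supply the 6 residual degrees of freedom. On 20 simulated sets of 10461 genes the share of changes recovered was 6.87% where they were 2-fold, 52.3% where 4-fold and 86.4% where 16-fold. Of each list the 3 genes of smallest p are named, and for each member the 5 most correlated genes, besides markers and those said to be named after their values were seen. The members and lists were chosen with earlier results of these data known. No batch is named. R 4.3.3 and limma 3.58.1 were used. Fits varying background correction, normalization, filter, variance model, probe rule and tumours are given at the end.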

Additional observations from a re-analysis of the deposited data

Results flagged for a closer look

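Pdgfra in resistant tumour 6, at 9.787 on the log2 scale, lay far below the other 6 resistant tumours. The gap to the next tumour was 0.842 of the whole range, where the 95% critical value of Dixon's test for 7 samples is 0.568. Chance takes about 1 in 20 groups past that critical value, and 5 members were examined. Pdgfrb and Pdgfb were also lowest in that tumour, with gaps of 0.118 and 0.297, under the critical value.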

How the results depend on the processing

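No paired analysis was possible because there is 1 control tumour, whose label carries no replicate number. Over 15 alternatives each, Pdgfra, Pdgfrb, Pdgfa and Pdgfb kept a negative difference and 0 passed, with adjusted p from 0.364 to 0.991. The differences ranged from -0.76 to -0.09 for Pdgfra, -0.45 to -0.05 for Pdgfrb, -0.88 to -0.47 for Pdgfa and -0.91 to -0.52 for Pdgfb. Median scaling moved the median of all genes to -0.18, and gave the lowest values of Pdgfra, Pdgfa and Pdgfb. Pdgfc changed sign without background correction (0.041), with the deposited normalized values (0.042) and without tumour 1, 3, 5 or 6 (leaving out each tumour gave -0.21 to 0.18). Those 2 settings gave 8 lower genes, median scaling 35, no detection filter 4 higher and 35 lower, the trended robust prior 3 higher, and leaving out 1 resistant tumour 1 to 8 higher and 5 to 50 lower, against 1 and 22. The lower count was 50 with tumour 1 left out and 36 with tumour 6 left out, while omitting tumour 2, 3, 4 or 7 gave 5, 8, 11 or 14. The cause was not tested. Chosen after seeing the data, the SD with each tumour left out was 0.20 for Pdgfra without tumour 6 and 0.22 for Pdgfa without tumour 4. Without the 2 tumours farthest from the median, r turned for Pdgfra with Pdgfrb (-0.48), Pdgfa (-0.21), Pdgfb (-0.038) and Pdgfc (-0.23), and for Pdgfrb with Pdgfa (0.28). No pair passed with all 8 tumours, without background correction or with the deposited values. Pdgfc in tumours 3 and 5 lay nearest to background, at 134.6 and 124.6 where the highest undetected intensities were 93.5 and 90.5.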
